A study of Homo sapiens with 6 samples.

Results

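HEK293 cells that received an shRNA against SET8 were compared with cells that received a control shRNA, both after Wnt3a medium. HEK293 is a line derived from human embryonic kidney. The comparison uses 4 of the 6 single-colour expression arrays of the study, 2 with SET8 shRNA and 2 with control shRNA. The remaining 2 arrays, control shRNA with control medium, enter through the estimate of the spread and are given as a background level. Cells were transfected for about 40 hours, which the study's design text calls an siRNA transfection with shRNA, and were kept in the medium for 7 hours. No group combined SET8 shRNA with control medium, so any difference below is a difference in Wnt3a medium. All 45033 probe sets of the array were available, 42947 of them with a gene name. A probe set, nearly always of 3 probes, was tested where it lay above the median of its own array on at least 2 of the 6 arrays. This left 23808 probe sets, of which 23088 had a gene name and covered 13070 genes.

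SET8, also called KMT5A or SETD8, adds a single methyl group to lysine 20 of histone H4, and KMT5B and KMT5C add further methyl groups to it. The mark rises through S phase and peaks in mitosis, and the enzyme is removed in S phase by the CRL4-Cdt2 ubiquitin ligase when it meets PCNA on DNA. Loss of the enzyme is known for replication stress, DNA damage and a block of the cell cycle. The series title links the mark to the activation of Wnt target genes, and this comparison asks what else the SET8 shRNA does to the transcriptome of cells in Wnt3a medium.

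Values are log2 intensities, where 1 unit is a 2-fold step, and a gene's value is the mean over its tested probe sets. A difference is always SET8 shRNA minus control shRNA in Wnt3a medium. A gene is called separated where both SET8 arrays lay at least 1.5-fold above, or at least 1.5-fold below, both control shRNA arrays; this is a description of 4 arrays and not a test. The random control probes of the array read between 4.66 and 4.84 and the array medians between 7.63 and 7.79, so the deposited levels of all 6 arrays were closely matched. These values had already been processed by the authors, so this does not show that the RNA or the raw signals were matched. Replicate arrays correlated across probe sets at 0.955 with control shRNA and at 0.978 with SET8 shRNA in Wnt3a medium. Nothing in the labels says that replicates came from separate cultures, and the p-values therefore reflect only how far these arrays differ among themselves, which may be technical.

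The targeted gene was lower. KMT5A (chromosome 12, 122434656 to 122459853, hg18) read 10.52 and 10.15 with control shRNA and 9.0 on both arrays with SET8 shRNA, against 10.43 and 10.34 in control medium. Both SET8 arrays lay below the 4 control shRNA arrays. The difference was -1.33 (SE 0.21), or 2.52-fold, and limma gave it an adjusted p of 0.113 (Benjamini-Hochberg, 13070 genes). Its 2 probe sets gave -1.56 (SE 0.34) and -1.11 (SE 0.28). They moved in opposite directions between the SET8 arrays, 1 reading 8.97 and 9.65 and the other 9.03 and 8.34. The equal gene values on these arrays, and the small SE of the gene, come from averaging the 2. The arrays do not show the amount of SET8 protein. Among the 21 tested genes of the H4K20 methylation and CRL4-Cdt2 list, KMT5A was the separated gene and the median difference was 0.02. KMT5B read 8.77 and 9.42 with control shRNA and 8.23 and 7.86 with SET8 shRNA, a difference of -1.05 (SE 0.31), while KMT5C differed by 0.38 (SE 0.19) and ORC1, an origin-recognition subunit that binds methylated H4K20, by 0.57 (SE 0.30). The SE of KMT5C is also that of a mean, and its 2 probe sets had SEs of 0.33 and 0.36. None of these genes passed the limma threshold, and KMT5B lay 1.5-fold apart in only part of its array pairs.

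No gene passed an adjusted p of 0.05 in limma (0.0% of 13070 genes and 0.0% of 23808 probe sets), so the words higher and lower below describe values. The smallest adjusted p was 0.0752 for genes and 0.0895 for probe sets. At an unadjusted p under 0.05, limma gave 578 genes higher and 541 lower. At an adjusted p under 0.1 there were 20 genes higher (0.153%) and 22 lower (0.168%), 42 in all. By separation, 405 probe sets were higher (1.7%) and 348 lower (1.46%), and 231 genes were higher (1.77%) and 212 lower (1.62%). The SET8 arrays alone carried 26 of the higher genes past the brightness filter, and control shRNA arrays alone carried 57 of the lower ones. A gene carried by the SET8 arrays alone, or by the control shRNA arrays in Wnt3a medium alone, had to differ. A gene carried only by the control medium arrays, such as CD4 (-0.17), did not have to. The median difference over all genes was 0.0098, with 51.3% of genes higher. At the edge of the 1.5-fold limit, the closest array pair of GLS2 was 1.5015-fold apart and the gene was counted, and that of TRAPPC9 was 1.4987-fold apart and it was not.

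Agreement between probe sets of a gene could be examined for 6368 genes with at least 2 tested probe sets. Probe sets of a gene pointed in 1 direction in 65.4% of them, 2115 with all probe sets higher and 2049 with all lower. The gene difference is the mean of the same probe sets, so agreement has to be higher where it is large, and the shares by size are a description. Agreement was 46.9% for 3935 genes that differed by less than 0.25, 93.4% for 1626 genes between 0.25 and 0.5, 99.3% for 681 genes between 0.5 and 1, and 100% for 126 genes that differed by 1 or more. More probe sets are also less likely to share a sign whatever the data, and the shares by number were 72.7% with 2 probe sets, 59.1% with 3, 42.1% with 4 and 31.9% with 5 or more. Across these genes, the differences of the brightest and the second brightest probe set correlated with a Pearson r of 0.736 and a Spearman rho of 0.652. These probe sets share the same 6 arrays and can overlap in sequence, so the correlation is a description.

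**Figure D1:**
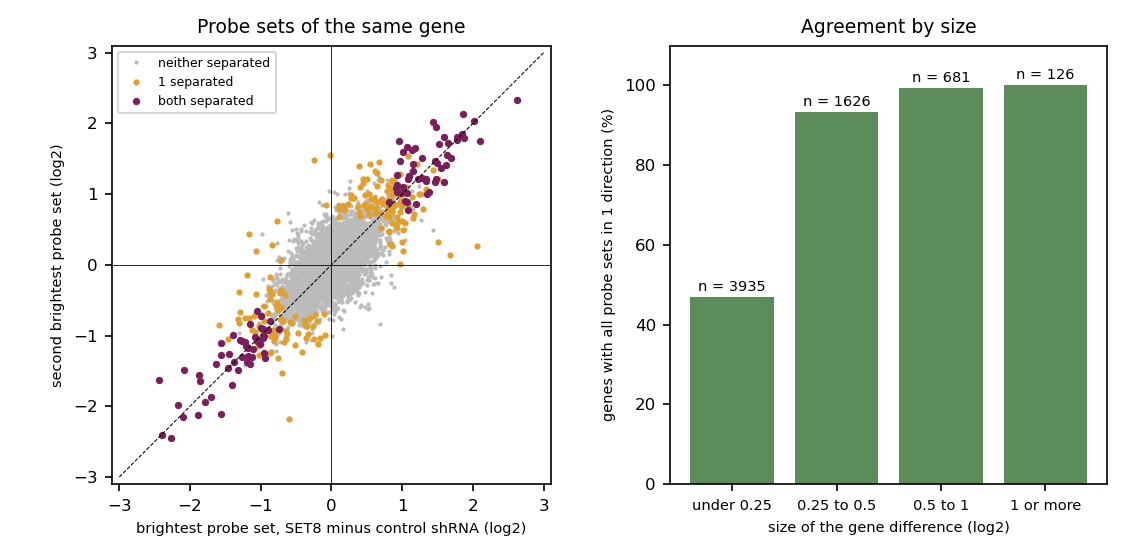
Left, difference of the brightest tested probe set of each gene (x axis, log2) against that of the second brightest (y axis, log2) for 6368 genes, coloured by whether neither, 1 or both probe sets were separated at least 1.5-fold; the dashed line marks equal values. Right, share of genes with all tested probe sets in 1 direction (%), by the size of the gene difference, with the number of genes above each bar; it climbs from 46.9% to 100%.

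Genes are named below without uncharacterised loci. The strictest class holds genes in which every one of at least 2 tested probe sets was separated: 47 genes higher (0.738% of 6368) and 42 lower (0.66%). No gene had a probe set separated higher together with another separated lower. Where a gene had at least 1 probe set separated higher, the rest pointed the same way in 179 of 185 genes, and for lower probe sets in 139 of 152. This last count is not independent of the size effect above. Of the probe sets separated higher, 65 passed the brightness filter only through the SET8 arrays. Of those separated lower, 92 passed it only through control shRNA arrays. Probe sets carried by only 1 of the compared groups had to differ, and the agreement of all of these is a description. Part of the probe sets of PPARG, LCK, AK3, ATP6V1D, PCSK2, SYN1, MAPK11, GOLGA7B and CNRIP1 passed the filter only through arrays of 1 shRNA.

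**Figure D2:**
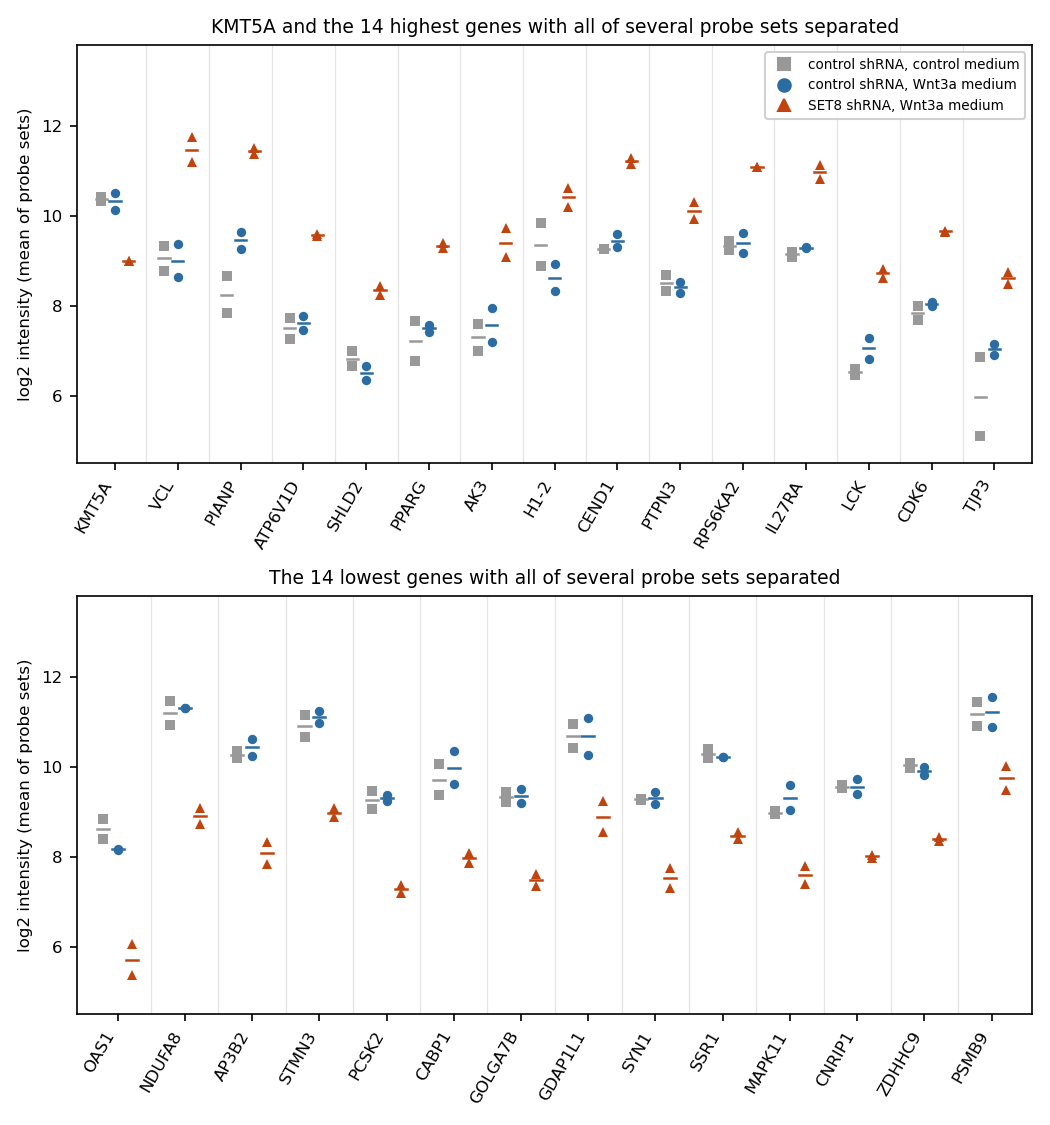
Log2 intensity (y axis, mean over tested probe sets) of KMT5A and the 14 highest genes (top) and the 14 lowest genes (bottom) among those with every one of at least 2 tested probe sets separated, uncharacterised loci left out. Each symbol is 1 array and the short line is the mean of 2 arrays; in each of these genes the SET8 shRNA arrays (triangles) lie apart from both control shRNA groups on the same side.

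Among genes with several probe sets, the highest was VCL, which encodes vinculin, the protein that ties integrin adhesions to actin. VCL (chromosome 10, 75427877 to 75549924, hg18) read 9.37 and 8.64 with control shRNA and 11.20 and 11.76 with SET8 shRNA, against 9.34 and 8.78 in control medium. The groups did not overlap, with the SET8 arrays highest. The difference was 2.47 (SE 0.35), 5.56-fold (limma adjusted p 0.0908), and its probe sets gave 2.33 and 2.62. ATP6V1D, a stalk subunit of the proton pump that acidifies lysosomes, read 7.46 and 7.78 against 9.61 and 9.55. Its 4 tested probe sets gave 1.82 to 2.03, and the gene difference of 1.96 (SE 0.24) had a limma adjusted p of 0.0752. The probe set at 1.82 was tested only through the SET8 arrays.

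The other higher genes of this class belong to several functions. SHLD2, a subunit of the shieldin complex that protects broken DNA ends from resection downstream of 53BP1, read 6.66 and 6.35 with control shRNA and 8.25 and 8.45 with SET8 shRNA. Its probe sets gave 1.84 and 1.85, and it was bright enough to test only on the SET8 arrays. The nuclear receptor PPARG, the master regulator of fat cells, was 1.84 higher (SE 0.31) over 3 probe sets. Of these, the probe sets at 1.75 and 1.68 were tested only through the SET8 arrays. The linker histone H1-2 read 8.33 and 8.93 against 10.62 and 10.21, a difference of 1.78 (SE 0.38), although its control medium arrays reached 9.84. The G1 kinase CDK6 read 8.0 and 8.10 against 9.68 and 9.65, 1.61 higher (SE 0.20, limma adjusted p 0.0762). CEND1, known for promoting cell cycle exit in neuronal precursors, was 1.77 higher (SE 0.20) and its probe sets gave 1.76 and 1.78. Signalling proteins included the RSK family kinase RPS6KA2 (1.70, SE 0.23), the cytokine receptor IL27RA (1.69, SE 0.21), the tyrosine phosphatase PTPN3 (1.71, SE 0.25) and LCK, a Src family kinase of T cells (1.67, SE 0.23). The set was completed by PIANP (1.99, SE 0.31), the mitochondrial nucleotide kinase AK3 (1.83, SE 0.37) and the tight-junction scaffold TJP3 (1.59, SE 0.53), which like SHLD2 was tested only through the SET8 arrays. PIANP read 8.67 and 7.84 in control medium and 9.64 and 9.28 with control shRNA in Wnt3a medium, so it also differed between the media.

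Among genes with 1 tested probe set, the smallest p on the higher side belonged to DAZAP2, an adaptor protein, which read 9.96 and 9.94 with control shRNA and 11.92 and 11.85 with SET8 shRNA. Its difference was 1.94 (SE 0.19), 3.83-fold, with a limma adjusted p of 0.0752, shared with the next 4. HPRT1, the enzyme of purine salvage (chromosome X, 133421922 to 133462362, hg18), read 8.39 and 8.74 against 10.64 and 11.13, a difference of 2.33 (SE 0.26). PRPS2, which makes the phosphoribosyl pyrophosphate that HPRT1 consumes, read 8.35 and 8.17 against 10.50 and 10.48, a difference of 2.22 (SE 0.27). These enzymes catalyse consecutive steps, and both SET8 arrays stood apart from all control shRNA arrays. TDG, the glycosylase that removes thymine from G-T mismatches, was 1.81 higher (SE 0.21), and the lysosomal galactosylceramidase GALC was 1.69 higher (SE 0.21). TDG and GALC were bright enough to test only on the SET8 arrays.

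On the lower side the antiviral enzyme OAS1, which makes the oligoadenylate that activates RNase L, led the genes with several probe sets. OAS1 (chromosome 12, 111829121 to 111842095, hg18) read 8.18 and 8.15 with control shRNA and 6.06 and 5.37 with SET8 shRNA, against 8.40 and 8.85 in control medium. The SET8 arrays lay below all others. The gene difference was -2.45 (SE 0.29), or 5.47-fold (limma adjusted p 0.0752), and all 5 tested probe sets were separated, from -2.86 to -1.99. Each of them passed the brightness filter only through control shRNA arrays.

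NDUFA8, an accessory subunit of respiratory complex I, read 11.31 and 11.31 with control shRNA and 9.09 and 8.74 with SET8 shRNA, a difference of -2.40 (SE 0.26, limma adjusted p 0.0752). Its probe sets gave -2.41 and -2.39. The beta subunit of the neuronal AP-3 vesicle coat, AP3B2, read 10.25 and 10.63 against 8.33 and 7.83, and STMN3, a stathmin that destabilises microtubules, read 10.99 and 11.24 against 9.08 and 8.89. The prohormone convertase PCSK2 read 9.24 and 9.39 against 7.37 and 7.20. In these genes the control medium arrays read like the control shRNA arrays in Wnt3a medium, and the 2 SET8 arrays were apart from both. The differences were -2.36 for AP3B2 (SE 0.26), -2.13 for STMN3 (SE 0.24) and -2.03 for PCSK2 (SE 0.22), each with a limma adjusted p of 0.0752.

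The other lower genes of this class had several functions. SSR1, the alpha subunit of the TRAP complex at the translocon, read 10.23 and 10.22 against 8.56 and 8.40, a difference of -1.75 (SE 0.20). ZDHHC9, a palmitoyltransferase, was at -1.52 (SE 0.20), and GOLGA7B, a partner of such enzymes, at -1.87 (SE 0.22). The calcium-binding CABP1 was at -2.01 (SE 0.34), GDAP1L1 at -1.79 (SE 0.38), the synaptic vesicle phosphoprotein SYN1 at -1.78 (SE 0.23), the p38 kinase MAPK11 at -1.71 (SE 0.27), the cannabinoid-receptor partner CNRIP1 at -1.55 (SE 0.21) and the immunoproteasome subunit PSMB9 at -1.46 (SE 0.34). Genes with 1 tested probe set and the smallest p on this side were CPLX1, TMEM121B, OLFM1, IFIT1 and TMEM198, each with a limma adjusted p of 0.0752. CPLX1, a complexin that clamps the SNARE complex (chromosome 4, 768744 to 809945, hg18), read 10.58 and 11.06 with control shRNA and 8.27 and 8.06 with SET8 shRNA, 6.29-fold lower. TMEM121B read 11.87 and 11.79 against 9.92 and 10.03, and TMEM198 read 10.36 and 10.14 against 8.31 and 8.40.

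Groups of genes were then described from 35 lists, by how many members were tested, how many were separated, and the median difference beside 0.0098 for all genes. The shares to set beside the counts are 1.77% of all genes separated higher and 1.62% separated lower. In bulk RNA, fewer cells of a type and less RNA per cell cannot be told apart. Medians close to 0 were unstable: for 18 of the 35 lists the median changed sign when 1 of the 4 compared arrays was left out. Some list members beyond the 4 with the smallest p are named to complete a count or to show members near 0, and these were chosen after their values were seen. For 17 lists the median kept its sign, though often not its size, among them the antiviral, granin, neuronal cytoskeleton, focal adhesion, p53, amino acid response, glycolysis, respiratory chain, proteasome and Polycomb lists.

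**Figure D3:**
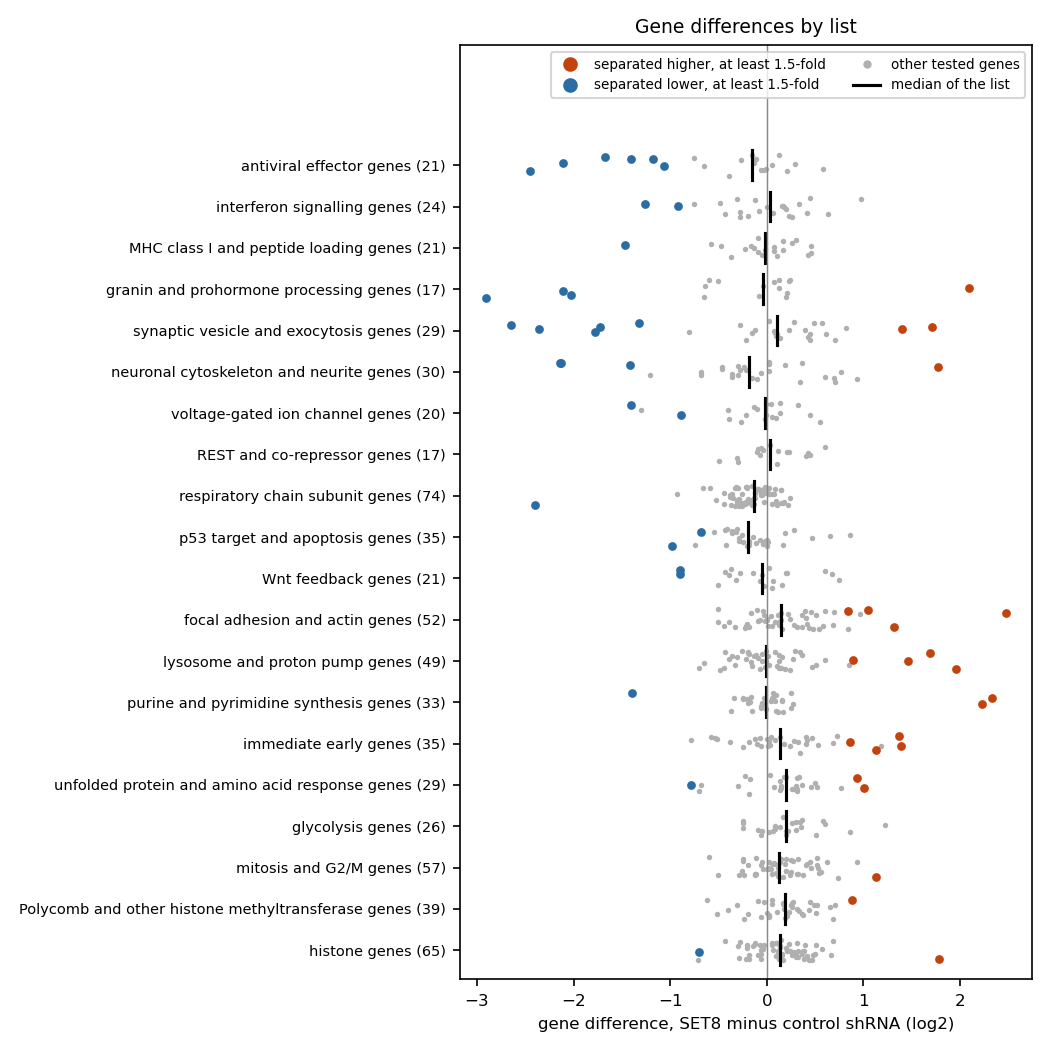
Gene difference, SET8 minus control shRNA in Wnt3a medium (x axis, log2), for the tested members of 20 gene lists (rows, number tested in brackets). Each dot is 1 gene, red where separated higher and blue where separated lower at least 1.5-fold, and the black bar is the median of the list; antiviral genes show 6 blue dots and no red one, and focal adhesion genes 4 red dots and no blue one.

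Antiviral effector genes are induced by type I interferon through the factor ISGF3, which binds interferon-stimulated response elements in their promoters. Of 40 such genes, 21 were tested; 16 were lower, 6 were separated lower, 0 were separated higher and the median was -0.15. The 6 were OAS1, IFIT1, IFIT3, IFI27, IFI6 and IFITM1, and 3 of them, OAS1, IFIT1 and IFIT3, were bright enough to test only on control shRNA arrays. The other 19 genes of the list, MX1, RSAD2 and IFI44L among them, were too dim on these arrays to be tested. The promoters of 5 of the 6 held the core of the response element, here GAAANNGAAA (N is any base), searched on both strands in the RefSeq window from 250 bases before to 50 after each gene start (GRCh38.p14). The exception was OAS1, whose window held no match. The 5 stretches are shown as a description, with each match of the first listed start in capitals, read 5′ to 3′ along the gene. Where the match lies on the other strand it reads as the reverse complement.
IFIT1: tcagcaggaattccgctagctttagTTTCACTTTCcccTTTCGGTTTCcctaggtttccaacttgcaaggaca
IFIT3: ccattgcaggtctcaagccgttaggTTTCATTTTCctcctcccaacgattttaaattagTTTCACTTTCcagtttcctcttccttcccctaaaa
IFI6: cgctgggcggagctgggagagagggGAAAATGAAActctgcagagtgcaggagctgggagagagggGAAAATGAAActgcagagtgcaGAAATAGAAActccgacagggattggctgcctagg
IFI27: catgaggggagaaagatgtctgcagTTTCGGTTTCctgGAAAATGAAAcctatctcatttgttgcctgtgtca
IFITM1: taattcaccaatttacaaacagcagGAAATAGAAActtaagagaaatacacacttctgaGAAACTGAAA

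The IFIT1 stretch is chr10:89392482-89392554 on the plus strand, that of IFIT3 chr10:89327816-89327909 (plus), that of IFI6 chr1:27672251-27672373 (minus), that of IFI27 chr14:94110603-94110675 (plus) and that of IFITM1 chr11:313975-314043 (plus). The same letters were in 3.57% of all 35116 promoter windows, in 343 of 9312 tested genes with a window (3.68%) and in 4 of 169 genes separated higher (2.37%). They were in 8 of 149 genes separated lower (5.37%), of which 5 are those shown, and in 17 of the 19 tested antiviral genes with a window. The motif was chosen after the values were seen, and the tested antiviral genes that carry it include genes that were not lower, so the match describes the list and not the difference.

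IFIT1, which binds foreign RNA at its cap, read 8.37 and 8.03 with control shRNA and 6.08 and 6.10 with SET8 shRNA, against 7.91 and 8.38 in control medium. Its partner IFIT3 read 7.64 and 7.13 against 5.50 and 5.91. IFITM1, which blocks virus entry at the plasma membrane, read 11.51 and 12.04 against 10.77 and 10.66. In each the SET8 arrays lay below the 4 control shRNA arrays. The differences were -2.11 for IFIT1 (SE 0.24), -1.68 for IFIT3 (SE 0.26) and -1.06 for IFITM1 (SE 0.25), whose 2 probe sets gave -1.07 and -1.05. IFI27 read 9.20 and 10.03 against 8.38 and 8.04 and IFI6 read 11.76 and 12.14 against 10.95 and 10.58. Their probe sets gave -1.49 and -1.32 for IFI27 and -1.19 and -1.18 for IFI6. Antiviral members that were tested and not separated ranged from ISG15 at -0.76 (SE 0.42) through IFITM3 at -0.03 to OAS3 at 0.58 (SE 0.28).

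Upstream of these effectors, 24 of 28 interferon signalling genes were tested, with 2 separated lower, 0 higher and a median of 0.03, which was -0.12 without control shRNA, Wnt3a medium replicate 2. IRF7, the factor that amplifies interferon production, read 9.81 and 10.12 against 9.14 and 8.27, and its probe sets gave -1.47 and -1.06. IRF9, the DNA-binding part of ISGF3, read 8.68 and 8.83 against 8.02 and 7.63, a difference of -0.92 (SE 0.22, limma adjusted p 0.246). STAT2, another part of ISGF3, was at -0.76 (SE 0.36) and was not separated. The toll-like receptor adaptor TICAM1 (0.97, SE 0.39) and the cytokine-signalling suppressor SOCS3 (0.63, SE 0.24) had higher values. Of 21 tested MHC class I and peptide loading genes, PSMB9 was separated lower and none higher, with PSMB8 at -0.48 (SE 0.20) and B2M at -0.16.

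Genes of secretory granules and synapses held some of the lowest values and some of the highest. Granins pack the dense-core granules of neuroendocrine cells, and prohormone convertases cut their cargo. Of 27 granin and prohormone genes, 17 were tested, with 3 separated lower, 1 higher and a median of -0.04. CHGB (secretogranin I) read 8.40 and 9.13 with control shRNA and 6.37 and 5.35 with SET8 shRNA, a difference of -2.90 (SE 0.41), 7.47-fold lower. CHGA (chromogranin A) read 8.18 and 9.38 against 6.75 and 6.60, a difference of -2.11 (SE 0.44). Together with PCSK2 these are the 3 lower genes, and CHGA and CHGB were bright enough to test only on control shRNA arrays. The neuropeptide gene CALCB was the higher one, with 7.40 and 8.07 against 10.03 and 9.62, and it read 5.45 and 5.94 in control medium. PCSK7 (-0.64), PTPRN (-0.65) and VGF (-0.60) were lower without being separated, and CPE (0.08) and FURIN (0.20) were near 0.

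Of 50 synaptic vesicle and exocytosis genes, 29 were tested, with 5 separated lower (CPLX1, AP3B2, SYN1, BSN and SYP), 2 higher, VAMP2 among them, and a median of 0.10. The active-zone scaffold BSN, bright enough to test only on control shRNA arrays, read 8.43 and 8.79 against 7.08 and 6.69, and the vesicle membrane protein SYP read 12.76 and 12.94 against 11.64 and 11.41. In the opposite direction, the vesicle SNARE VAMP2 read 9.33 and 9.27 against 10.79 and 10.59, with its 3 probe sets between 1.25 and 1.47. So members of the same vesicle machinery stood at -2.65 (CPLX1, SE 0.26) and at 1.39 (VAMP2, SE 0.20), and 19 of 29 members were above 0. BSN, SYP and VAMP2 are named beyond the rule for named genes because the counts are small.

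Of 44 neuronal cytoskeleton and neurite genes, 30 were tested, with 3 separated lower (OLFM1, STMN3 and NEFH), 1 higher (CEND1), and a median of -0.18. The secreted olfactomedin OLFM1 read 10.15 and 10.27 against 8.27 and 7.87. The heavy neurofilament NEFH read 9.64 and 9.71 against 8.19 and 8.33, with probe sets at -1.56 and -1.27. The neurofilament chains differed among themselves: the medium chain NEFM was at -0.46 (SE 0.19) and the light chain NEFL at 0.71 (SE 0.20), its 3 probe sets between 0.64 and 0.75. The collapsin response proteins DPYSL4 (-1.21, SE 0.31) and CRMP1 (-0.68, SE 0.22) were lower without being separated, and peripherin, PRPH, was at 0.93.

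Voltage-gated channels gave 2 separated lower genes among 20 tested of 43. One was the sodium channel subunit SCN3B, which read 8.60 and 8.37 against 7.02 and 7.13, a difference of -1.41 (SE 0.21). It was 1 of 5 tested channel genes that passed the brightness filter only through control shRNA arrays. The calcium channel CACNA1G was at 0.55 (SE 0.19) with its 6 probe sets between 0.25 and 0.72. Many neuronal genes are kept low outside neurons by the repressor REST, which binds the RE1 element. REST itself read 7.46 and 6.83 with control shRNA and 7.82 and 7.68 with SET8 shRNA, a difference of 0.60 (SE 0.29, limma adjusted p 0.664), and 0 of 17 tested REST and co-repressor genes were separated. The left part of the RE1 element, TTCAGCACC, was searched on both strands in the same windows after the values were seen. It was in 0.376% of all windows and in 33 of 9312 tested genes with a window (0.354%). Among separated genes it was in 0 of 169 higher and 4 of 149 lower (2.68%). The 4 were SYN1, CKMT1B, SIX6 and SKOR1, with SIX6 tested only through control shRNA arrays. CKMT1B was only just counted as separated (closest array pair 1.5011-fold apart). The counts are small, and whether REST has a part in these differences was not tested. The SYN1 stretch, shown because SYN1 is a lower synaptic gene with agreeing probe sets, is chrX:47620057-47620107 on the minus strand (GRCh38.p14, RefSeq), with the match in capitals.
SYN1: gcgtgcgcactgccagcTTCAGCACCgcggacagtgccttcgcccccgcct

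Focal adhesion and actin genes lay mostly on the higher side. Of 61 genes, 52 were tested, with 4 separated higher (VCL, TAGLN, PTK2 and TPM1), 0 lower and a median of 0.14, and 9 were higher against 0 lower at an unadjusted limma p under 0.05. The actin-bundling TAGLN read 10.67 and 11.37 against 12.52 and 12.14, with probe sets at 1.08 and 1.54. The tropomyosin TPM1 read 10.51 and 10.58 against 11.48 and 11.29, and its 9 tested probe sets all lay above 0, from 0.58 to 1.12. The focal adhesion kinase PTK2 read 10.41 and 9.85 against 11.05 and 11.29. The hemidesmosome integrin ITGB4 was at 0.96 (SE 0.28) with 3 probe sets between 0.90 and 1.0, and the myosin light chain MYL9 at 0.84 (SE 0.27), both without separation. Lower values were smaller, with MYH9 at -0.51, PARVB at -0.50 and ITGB1 at -0.44, and the adhesion scaffolds PXN (0.00) and TLN1 (0.24) were near 0. The median was 0.34 without control shRNA, Wnt3a medium replicate 1, and 0.06 without replicate 2.

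Lysosome genes had 4 members separated higher and 0 lower among 49 tested, with a median of -0.01. Besides ATP6V1D and GALC these were the membrane glycoprotein LAMP1, which read 10.33 and 10.55 against 11.91 and 11.90 with probe sets at 1.43 and 1.49, and the pump subunit ATP6V0D1, which read 14.22 and 14.25 against 14.94 and 15.31. Other subunits of the same pump had values at or below 0, with ATP6V1A at -0.19, ATP6V0C at -0.10 and ATP6V0E1 at -0.65. In the purine and pyrimidine list, 33 genes were tested, with HPRT1 and PRPS2 separated higher and RRM2, the small subunit of ribonucleotide reductase, lower. RRM2 read 11.71 and 10.76 against 9.79 and 9.90, and its probe sets disagreed in size, at -2.18 and -0.60. TDG was the separated gene among 21 base excision repair genes, which had a median of -0.03, with OGG1 at -0.32 over 6 probe sets and APTX at -0.26 over 8.

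Immediate early genes, the first transcripts to respond to growth factors and stress, had 4 members separated higher and 0 lower among 35 tested, with a median of 0.13. FOS read 7.27 and 6.70 against 8.31 and 8.40, a difference of 1.37 (SE 0.24, limma adjusted p 0.147), and was bright enough to test only on the SET8 arrays. FOSB read 8.25 and 8.37 against 9.30 and 9.58. NR4A1, an orphan nuclear receptor, read 9.54 and 9.41 against 10.58 and 11.14, although a control medium array stood at 8.01. NR4A2 read 8.80 and 8.84 against 9.54 and 9.82, with its 3 probe sets between 0.44 and 1.16. The median was 0.01 without SET8 shRNA, Wnt3a medium replicate 2, and -0.00 without control shRNA, Wnt3a medium replicate 2. HBEGF (-0.78), JUND (-0.58) and the phosphatase DUSP6 (-0.54) were lower at an unadjusted limma p under 0.05, without separation, HBEGF and DUSP6 having passed the filter only through control shRNA arrays, and EGR1 was at 0.41.

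Loss of SET8 is best known for its effects on the cell cycle and on DNA damage, which need not show in the RNA of genes of these processes. In the lists of such genes, the counts of separated members were too small to tell from the share over all genes (1.77% higher, 1.62% lower). RRM2, TDG and SHLD2, described above, are not in these lists. Of 53 tested DNA replication and G1/S genes, CDK6 was separated and the median was 0.10. CCNE1, the G1/S cyclin, was at -0.73 (SE 0.28) and GINS2, of the replicative helicase, at -0.55 (SE 0.23), both without separation. Of 57 tested mitosis and G2/M genes, the midzone kinesin KIF23 was separated higher (9.88 and 9.51 against 10.49 and 11.17), with 42 of 57 above 0 and a median of 0.13. The spindle factor TPX2 was at 0.74 (SE 0.22). The medians of both lists changed sign without control shRNA, Wnt3a medium replicate 2, to -0.02 and -0.01, and that of the mitosis list also without SET8 shRNA replicate 2 (-0.01). DNA damage response genes gave 0 separated of 34 tested, with MDC1 at 0.53 (SE 0.21) and ATM at 0.69 (SE 0.38). Another 13 on the array were too dim to test.

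The mixed list of p53 targets and apoptosis genes lay mostly on the lower side. Of 35 tested p53 target and apoptosis genes, 27 were lower, 2 were separated lower, 0 higher, and the median was -0.19. TP53I3, a quinone oxidoreductase, read 11.49 and 11.90 against 10.81 and 10.62, with probe sets at -1.01 and -0.95, and TP53INP1 read 7.63 and 7.76 against 7.00 and 7.03 and passed the brightness filter only through control shRNA arrays. The median was -0.03 without control shRNA, Wnt3a medium replicate 1. Of the main p53 effectors, the CDK inhibitor CDKN1A was near 0, at 0.01 (SE 0.20). The ubiquitin ligase MDM2 was at -0.19 over 7 probe sets, like the list median, with an SE of 0.40 that leaves its direction open. The death receptor FAS was at 0.86 (SE 0.29) without separation.

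Of 21 tested Wnt feedback genes, 2 were separated lower, 0 higher, and the median was -0.05. NKD1, an inhibitor that binds Dishevelled, read 11.61 and 11.63 with control shRNA and 10.52 and 10.92 with SET8 shRNA, against 8.97 and 8.70 in control medium, so it stood between the media. SFRP2, a secreted Wnt antagonist, read 8.38 and 8.78 against 7.69 and 7.67, close to 7.76 and 7.61 in control medium, and it passed the brightness filter only through control shRNA arrays. TBXT was at 0.75 (SE 0.27) and TCF7 at 0.67 (SE 0.40), its 3 probe sets between 0.08 and 1.0. A comparison of the media would use the same Wnt3a arrays of the control shRNA, so the levels in control medium are given here only as values.

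Metabolic, stress and housekeeping lists held few separated genes. Of 74 tested respiratory chain genes 58 were lower, with a median of -0.13, and NDUFA8 was the separated one; COX6B1 at -0.66 (SE 0.20) and NDUFA5 at -0.59 (SE 0.21) had the next smallest p. The median was -0.02 without SET8 shRNA, Wnt3a medium replicate 2, and -0.06 without control shRNA, Wnt3a medium replicate 2, so its size rests on these arrays. Of 26 glycolysis genes 20 were higher, with a median of 0.20 and 0 separated, and the highest values were those of the glucose transporters SLC2A1 (1.23, SE 0.42) and SLC2A3 (0.86, SE 0.33). In the unfolded protein and amino acid response list, 22 of 29 were higher and the median was 0.20, with DDIT4 (1.0, SE 0.19) and VLDLR (0.93, SE 0.24) separated higher and the serine synthesis enzyme PSPH (-0.78, SE 0.18) lower. None was separated among 76 cytosolic ribosomal protein genes (median -0.05), 31 proteasome genes (-0.10), 49 splicing factor genes (0.12), 44 nuclear transport genes (-0.01), 33 heat shock genes (-0.00) and 33 cholesterol and fatty acid genes (0.05).

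Among chromatin genes, 30 of 39 Polycomb and other histone methyltransferase genes were higher, with a median of 0.19, which was 0.07 without SET8 shRNA, Wnt3a medium replicate 2, and 0.04 without control shRNA, Wnt3a medium replicate 2. The lysine methyltransferase SMYD2 was separated, reading 9.84 and 10.26 against 10.95 and 10.92, with its 5 probe sets between 0.64 and 1.05. EZH1 (0.71, SE 0.26), SUZ12 (0.65, SE 0.21) and SETD1A (0.68, SE 0.25) were higher without separation. Of 65 tested histone genes, H1-2 was separated higher and H4C8 lower (-0.70, SE 0.19), and the median of 0.13 was -0.02 without SET8 shRNA, Wnt3a medium replicate 1. Many histone genes are near-identical copies, so their probe sets may read more than 1 gene.

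Markers of the line and of other cell types were read in the same way. Of 20 kidney and HEK293 markers 13 were tested, with GATA3, NEFL and NEFM above the array medians on the control shRNA arrays, and 0 were separated; PAX8, EYA1, CDH6 and 4 others were too dim to test. Of 24 blood cell genes on the array 5 were tested and 3 were separated lower: HBA1 (9.31 and 9.89 against 8.16 and 7.76), HBA2 (8.63 and 8.83 against 7.60 and 7.62) and CD68 (10.08 and 9.79 against 8.65 and 9.07). The mean level of the 5 was 8.50 and 8.68 with control shRNA and 7.87 and 7.72 with SET8 shRNA, and PTPRC was below the brightness filter. HBA2 and 1 other of the 5 passed that filter only through control shRNA arrays. HBA1 and HBA2 share nearly all of their sequence, so they may be 1 signal. Of 16 tested epithelial markers CDH1 was separated higher, at 0.97 (SE 0.28). Its probe set at 1.33 was separated but tested only through the SET8 arrays, and the other, at 0.62, was not separated. Of 12 fibroblast markers 0 were separated, with ACTA2 at -0.67 (SE 0.22). Whether these markers have a part in the other differences was not tested. Of 17 reference genes, HPRT1 and YWHAZ were separated higher, the latter with 7 probe sets between 0.98 and 1.38, so neither is a steady reference in this comparison.

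Probe sets that disagreed bear on single-gene readings. The widest gaps, picked after their values were seen, were in SSU72, RBM8A, TMEM19 and EIF1AX. SSU72, a phosphatase of RNA polymerase II, had 1 probe set that read 12.07 and 12.47 with control shRNA and 10.07 and 9.71 with SET8 shRNA (-2.38), while 2 brighter ones differed by 0.16 and -0.05. RBM8A, of the exon junction complex, had a dim probe set at 1.48 and 3 bright ones from -0.41 to -0.33. TMEM19 had probe sets at 2.05 and 0.27, and EIF1AX at 2.09, 0.37 and 0.32. The EIF1AX probe set at 2.09 was tested only through the SET8 arrays, so it had to differ. In SSU72, RBM8A and EIF1AX the probe set that stood apart was the dimmest of its gene by its mean level. In TMEM19 it was the dimmer one on every control shRNA array. For 4 of the separated higher genes a pseudogene was separated in the same direction: SHLD2 and SHLD2P3 (1.51), YWHAZ and YWHAZP9 (2.0), GLTP (1.29) and GLTPP1 (1.18), and MKRN1 (1.36) and MKRN9P (1.34). SHLD2 and YWHAZP9 passed the brightness filter only through the SET8 arrays. A gene and its pseudogene can share probe sequence, so these are not independent readings.

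**Figure D4:**
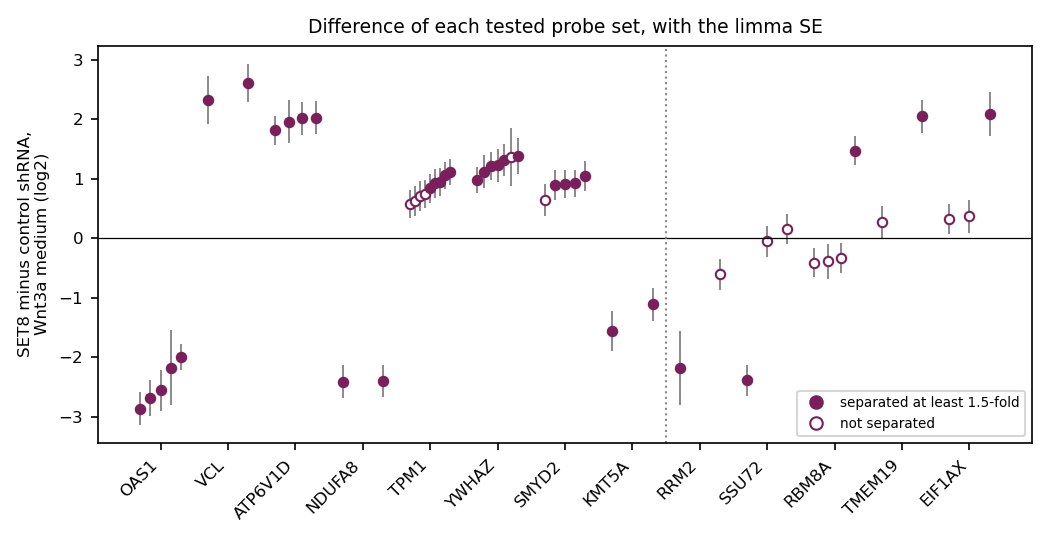
Difference of every tested probe set (y axis, log2, SET8 minus control shRNA in Wnt3a medium) for 13 genes; bars are the limma SE and filled circles mark probe sets separated at least 1.5-fold. Left of the dotted line, probe sets of OAS1, VCL, ATP6V1D, NDUFA8, TPM1, YWHAZ, SMYD2 and KMT5A agree in direction; right of it, RRM2, SSU72, RBM8A, TMEM19 and EIF1AX have probe sets far apart. All probe sets of OAS1 were tested only through control shRNA arrays. The lowest of ATP6V1D and the highest of EIF1AX were tested only through the SET8 arrays.

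Separated genes were then placed by brightness, genomic span and chromosome. Brightness also set which genes were tested, and dim genes that entered through only 1 of the compared groups had to differ. By brightness, the share of genes separated higher went from 2.87% in the dimmest quintile of genes to 0.459% in the brightest, and that of genes separated lower from 2.98% to 0.306%. By genomic span, the median difference went from -0.03 in the shortest quintile to 0.04 in the longest, and the share separated higher from 1.26% to 2.33%. The arrays did not agree on this: against the mean of the control shRNA arrays, the medians of SET8 replicate 1 went from 0.03 to -0.02 and those of replicate 2 from -0.09 to 0.11. By chromosome, medians lay between -0.09 on chromosome 21 and 0.07 on chromosome 12, which carries KMT5A. Chromosome 12 had 27 genes separated higher and 7 lower among 654 (4.13% higher), against 1.64% higher on the other chromosomes. Its median lay above that of the other chromosomes in all 4 pairs of a SET8 array with a control shRNA array in Wnt3a medium, by 0.04 to 0.08, and by 0.04 to 0.09 against the control medium arrays. Such a shift was not particular to chromosome 12. In the same pairs chromosome 21 stood at -0.07 to -0.16 from the other chromosomes, and at -0.08 to -0.16 against the control medium arrays. The higher genes on chromosome 12 included PIANP, DAZAP2, TDG, GLTP, KRT80, HOXC8 and HOXC10, and were picked after their values were seen. In the stretches of 110 to 120 and 120 to 130 Mb, which hold OAS1 and KMT5A, the medians were -0.02 and -0.02.

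**Figure D5:**
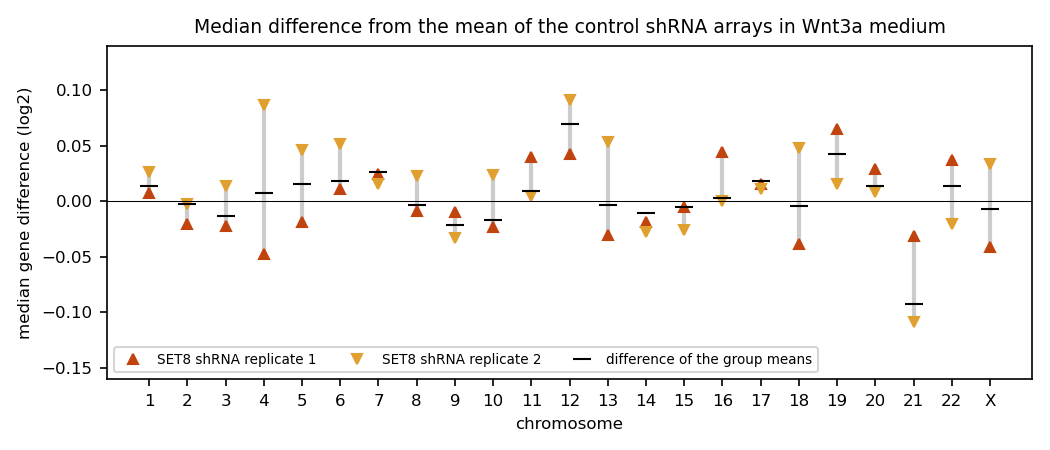
Median gene difference (y axis, log2) on each chromosome (x axis) for each SET8 shRNA array against the mean of the control shRNA arrays in Wnt3a medium (triangles) and for the difference of the group means (bars). Chromosome 12 is highest at 0.07 and above 0 on both arrays, and chromosome 21 lowest at -0.09 and below 0 on both.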

How the data were processed

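Per the labels' protocols, RNA was labelled with Cy3 and hybridised to NimbleGen arrays. The authors deposited 1 linear intensity per probe set and array, summarised with RMA per the submitters' processing notes; its version and settings are not given in the sources used here. A deposited series table holds the same values. Positions are hg18 per the file headers. The log2 of each deposited intensity was taken, and no offset was added. Gene names were updated through the Entrez ID with a RefSeq table (38916 probe sets, 86.4%, matched). limma 3.58.1 in R 4.3.3 (lmFit, eBayes) was fitted to all 6 arrays in 3 groups, which share 1 estimate of the spread, for probe sets and for gene means, with Benjamini-Hochberg adjustment over all tested; the fit was tested on simulated data. Comparing single values, 2 arrays against 2 cannot give an exact permutation p under 0.333. Genes named are KMT5A, the 14 highest and 14 lowest genes with all of several probe sets separated, the 5 on each side with 1 probe set and the smallest p, any gene with probe sets separated in opposite directions (there were 0), and up to 4 members of each list with the smallest p; uncharacterised loci were left out, and genes outside the rule are said to be chosen later. Members and lists were chosen with earlier results of these data known. Same-numbered replicates of control and SET8 shRNA deviated with a correlation of -0.29 and were not taken as pairs. Those of the 2 control shRNA groups correlated at 0.75, and the fit treats all 6 arrays as independent. Alternatives were other array sets, a replicate block, an intensity trend, other filters and scalings, array weights, a genomic span correction, the brightest probe set, and leaving out each array. Values of some genes are not reported here.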

Additional observations from a re-analysis of the deposited data

How the results depend on the processing

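In the reported limma fit 0 genes and 0 probe sets were under an adjusted p of 0.05, with 1119 genes and 1705 probe sets at an unadjusted p under 0.05. With the replicate block, which matches arrays by replicate number, the counts were 0 and 0, so this matching changed no call. The count stayed at 0 for both with a filter at the 60th percentile, no filter, quantile normalisation, median centring, array weights and a genomic span correction. Probe sets passing were 28 with only the 4 arrays in Wnt3a medium (0 genes), 15 with an intensity trend (13 genes), and 0 to 28 when 1 array was left out. At an adjusted p under 0.1 there were 19 probe sets and 42 genes. With the SET8 replicate numbers crossed, a setting chosen after seeing the data, 182 probe sets and 109 genes passed. The count thus depends on how the arrays are matched, which the replicate numbers alone do not settle. Separated probe sets numbered 753, 210 at 2-fold and 1339 with no filter, where the agreement between probe sets was 55.5%. Genes with all probe sets separated numbered 89, and 28 at 2-fold. Leaving out 1 of the compared arrays gave 1505 to 3261 separated probe sets, 142 to 308 such genes and 60.8% to 63.9% agreement, since fewer arrays have to be apart. For the 39 leading genes 0 of 657 alternative values reversed and 47 passed, 36 with crossed numbers and 11 with the trend. Of 2660 values of all named genes 3 reversed: RAD17 (-0.13) and RPS2 (-0.19) on the brightest probe set, and CD4, at -0.17 in the reported fit, which was 0.07 without SET8 replicate 2 and -0.41 without SET8 replicate 1. Another scaling changed the sign of 0 list medians. With 2 arrays a group, the number of arrays limits the precision.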
